A study of Glycine max with 9 samples.

Results

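Root tips of soybean (Glycine max cv. Williams 82) that had been exposed to 10 mM sucrose for 40 min (t40) were compared with root tips harvested without added sucrose (t0). The comparison uses 6 of the 9 RNA-seq libraries of the series, 3 at t40 (libraries 7, 8 and 9) and 3 at t0 (libraries 1, 2 and 3), each from the root tip sections of 1 plant. The libraries were chosen by the time named in the labels and not by any measured value. All plants, in both groups, had grown for 4 weeks in a diluted Hoagland nutrient solution, and sucrose was added to this solution. No addition of nutrient solution without sucrose is described for t0, so sucrose, the handling and the time between harvests cannot be told apart. The values are FPKM, fragment counts scaled for transcript length and library size, summed over all transcripts of a gene. Of 62609 gene identifiers, 32763 reached an FPKM of 1 in 3 or more libraries and were tested. Values are given in the order libraries 7, 8 and 9 for t40 and libraries 1, 2 and 3 for t0. The p-values measure the spread between plants, of which there are 3 at each time, and an exact permutation test of 3 against 3 could not give a p below 0.1.

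Sucrose is the main sugar that leaves carry to roots through the phloem, where it is both food and a signal that changes transcription, nutrient uptake and growth. Soybean roots also make isoflavonoids from phenylalanine by way of chalcone synthases and isoflavone synthases, and the pterocarpans derived from them, the glyceollins, act against microbes. WRKY factors, receptor kinases, calcium sensors, MAP kinases and jasmonate are well known parts of plant responses to microbes and stress.

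Among the genes called higher at t40 were 25 of 59 enzyme genes of phenylpropanoid and isoflavonoid synthesis, 24 of 34 cysteine-rich receptor kinases, 32 of 53 WRKY and 19 of 36 NAC factors, 11 of 20 phosphate carriers and SPX proteins and 7 of 15 genes of jasmonate synthesis and lipoxygenases. Those called lower included 6 of 16 growth-regulating factors, a stearoyl desaturase and 145 of 269 abundant genes with short transcripts. The growth-regulating factors called lower numbered 0 without library 8, and the abundant genes with short transcripts 55 without library 3. A gene was called when its log2 fold change was at least 1 in size and its adjusted p was under 0.05 (limma with Benjamini-Hochberg adjustment over all tested genes). By this rule 3441 genes (10.5% of those tested) were called higher at t40 and 1144 (3.49%) lower. In all 9 fits that each left out 1 library, 2004 of the higher and 348 of the lower genes were called again. The t40 and t0 libraries did not overlap in 3436 of the higher and 1125 of the lower genes. A lack of overlap in a called gene therefore adds little to its call. The called higher genes had a median FPKM of 11.97 at t40 and 2.41 at t0, while the called lower genes were abundant at t0, with a median FPKM of 47.6. A log2 fold change of 4 or more was reached by 105 genes, and one of -4 or less by 6. In whole root tips, a change in the number of cells of a type and a change in RNA per cell cannot be told apart. The plot of level and change shows that the rises were spread over low and middle levels and that the falls reached the most abundant genes.

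**Figure D1:**
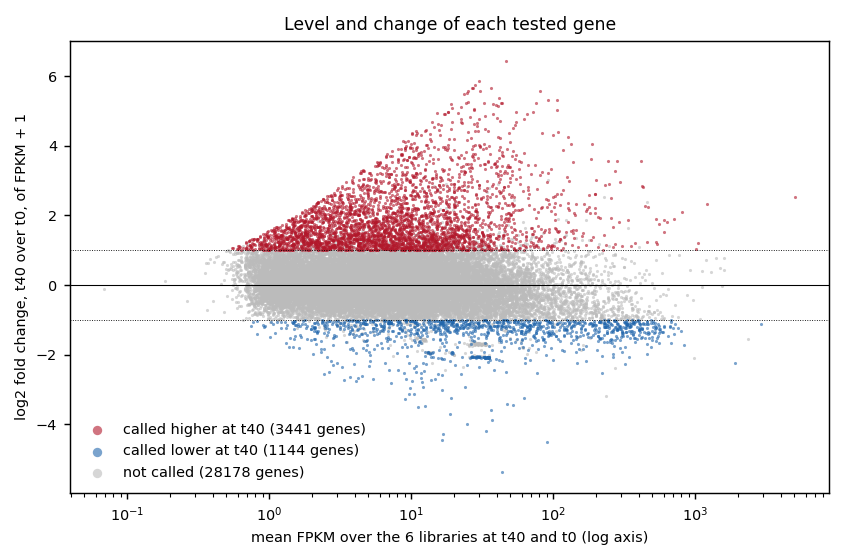
Log2 fold change of t40 over t0, on the scale of FPKM + 1, against the mean FPKM of the 6 libraries on a log axis, 1 point per tested gene. The 3441 genes called higher are red and the 1144 called lower are blue, and dotted lines mark log2 fold changes of 1 and -1.

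In the t40 libraries the called higher genes together took 19.7%, 17.7% and 17.2% of all FPKM, against 4.65%, 4.33% and 3.43% in the t0 libraries. The called lower genes took 9.58%, 9.52% and 11.9% at t40, against 20.0%, 22.0% and 30.7% at t0. FPKM is scaled to library size, but its sum is not fixed. The summed FPKM was 643081, 638361 and 660302 in the t40 libraries, against 699498, 706650 and 720621 in the t0 libraries. The part of this difference in the calls was not tested. Library 3 (t0) held the largest share of the called lower genes, and it also had the largest share of ribosomal RNA loci, 4.38%, against 0.342% to 1.30% in the other 5 libraries. Across genes the log2 values of 2 t40 libraries had a Pearson correlation of 0.966 to 0.974, those of 2 t0 libraries 0.933 to 0.971, and those of a t40 and a t0 library 0.815 to 0.877.

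Markers of other cell types were measured beside these results. Of 25 nodule genes with a symbol, 13 were listed at 0 in all 6 libraries, 8 were tested and 0 were called by limma, with 2 lower at an unadjusted p under 0.05. The others were not silent, as the summed FPKM of the nodule list was 779 to 874 at t40, against 560 to 829 at t0. Among 12 tested seed genes 1 was called higher (8.33%), with a log2 fold change of 3.06, and 0 lower. Of 12 leaf genes 8 were tested and 0 were called at either threshold, and RBCS2, a small subunit of Rubisco, had 98.9, 99.5 and 82.5 FPKM at t40, against 309, 130 and 93.8 at t0. Genes of the sieve element occlusion family, structural proteins of phloem sieve tubes, were called higher in 7 of 14 tested cases, beside 10.5% of all genes. They were called higher in 4 cases without library 8, and their median log2 fold change was 1.01. Their summed FPKM was 99.5 to 144 at t40, against 45.3 to 58.1 at t0. SEOA had 14.1, 18.8 and 12.1 FPKM at t40, against 5.49, 4.95 and 6.05 at t0 (log2 fold change 1.28, adjusted p = 0.00293). These phloem markers rose together with the gene groups described next, and their part in those results was not tested.

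The 12 largest rises were taken from called genes whose groups did not overlap and whose mean was at least 5 FPKM. All of them had an FPKM of 3.72 or less in every t0 library. Leaving out any 1 library did not remove the call of any of them. LOC100780605, which carries the synonym CYP71D8 of a cytochrome P450, had 42.3, 46.1 and 63.2 FPKM at t40, against 0.0237, 0.0234 and 0.131 at t0. Its log2 fold change was 5.58 (standard error 0.64, adjusted p = 0.000993). LOC100784723, on chromosome 11, had 38.3, 50.9 and 71.1 FPKM at t40, against 0.0216, 0.0657 and 0.0405 at t0. In both genes every t40 library stood far above every t0 library, and library 9 was the highest. LOC100794321 on chromosome 6 had 30.8, 67.0 and 85.2 FPKM at t40, against 0.217, 0.325 and 0.0901 at t0. LOC100500558 on chromosome 11 had 59.3, 64.9 and 122 FPKM at t40, against 0.355, 0.0709 and 3.72 at t0. The t0 libraries of LOC100500558 were uneven, with library 3 the highest. MSTRG.14963, an assembled locus on chromosome 8 that joins the chalcone synthase gene CHS4A with LOC121175284, had 116, 132 and 227 FPKM at t40, against 1.45, 2.37 and 2.94 at t0. The reads of these joined genes cannot be separated in the sum. In all, 36 called higher genes were listed at 0 in all t0 libraries, among them the heat shock factor HSF-27, with 3.62, 2.67 and 6.96 FPKM at t40. Such genes could enter the test only through libraries with sucrose, so their number depends on the filter and the call. Called lower genes listed at 0 in all t40 libraries numbered 2.

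**Figure D2:**
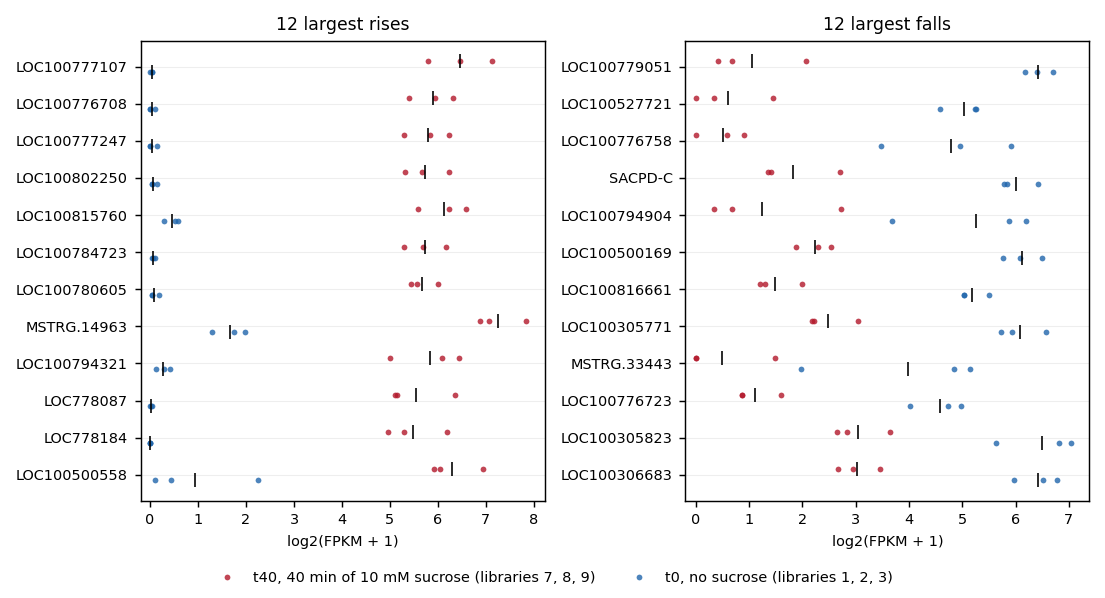
FPKM on the log2(FPKM + 1) scale of the 12 largest rises (left panel) and 12 largest falls (right panel), with t40 libraries in red and t0 libraries in blue. Each point is 1 library and each black tick the mean of the 3 values. Only genes in which the 2 groups do not overlap could be chosen.

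Of 59 tested phenylpropanoid and isoflavonoid enzyme genes, 25 were called higher and 3 lower, that is 42.4% and 5.08% beside 10.5% and 3.49% of all genes, and their median log2 fold change was 0.77. At the entry of the pathway PAL3.1, a phenylalanine ammonia-lyase, had 14.5, 11.3 and 10.2 FPKM at t40, against 2.64, 3.35 and 1.04 at t0 (log2 fold change 2.01, adjusted p = 0.00874). The 4-coumarate:CoA ligase gene 4CL3 had 17.2, 17.7 and 25.0 FPKM at t40, against 1.54, 1.35 and 1.02 at t0 (log2 fold change 3.17, adjusted p = 0.00239). In both genes every t40 library was above every t0 library. The 3 highest changes in the list were those of CHS3, CHS3C and G4DT. Chalcone synthase CHS3 had 62.5, 64.6 and 108 FPKM at t40, against 0.724, 1.43 and 1.25 at t0 (log2 fold change 5.18, standard error 0.74, adjusted p = 0.00199). CHS3C had 45.0, 49.0 and 83.9 FPKM at t40, against 0.863, 1.35 and 1.12 at t0. These chalcone synthases are near-identical copies, so reads could have been divided between them by the assembly. G4DT, a prenyltransferase that acts on the pterocarpan glycinol in glyceollin synthesis, had 85.4, 56.9 and 104 FPKM at t40, against 1.75, 1.86 and 2.65 at t0.

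Genes of the middle of the pathway were called higher as well. CHR1, a chalcone reductase that works with chalcone synthase to make 5-deoxy isoflavonoids, was 1 of the 8 most abundant called higher genes. It had 825, 903 and 1211 FPKM at t40, against 204, 321 and 315 at t0 (log2 fold change 1.81, adjusted p = 0.00185). Isoflavone synthase IFS2, a P450 that makes the isoflavone skeleton, had 172, 135 and 221 FPKM at t40, against 12.3, 15.3 and 22.9 at t0 (log2 fold change 3.32, adjusted p = 0.00289). Its lowest t40 library was far above its highest t0 library. Isoflavone reductase IFR, which acts later in pterocarpan synthesis, had 89.0, 63.7 and 80.1 FPKM at t40, against 5.2, 6.89 and 3.96 at t0 (log2 fold change 3.64, adjusted p = 0.0011). PTS1, named for pterocarpan synthase, had 44.5, 36.8 and 74.4 FPKM at t40, against 3.07, 4.43 and 10.9 at t0 (log2 fold change 2.98, adjusted p = 0.00434). Not every copy moved this way. The called lower members were the cinnamate hydroxylase C4H1, the chalcone synthase CHS13 and the chalcone isomerase CHI3A2, which lost its call in 7 of 9 fits, without library 1, 2, 3, 6, 7, 8 or 9. C4H1 had 2.39, 1.33 and 1.63 FPKM at t40, against 18.8, 14.6 and 9.67 at t0 (log2 fold change -2.44, adjusted p = 0.00219). The far more abundant copy C4H was not called, with 287, 379 and 280 FPKM at t40, against 290, 191 and 178 at t0. MYB29, a factor known to activate isoflavonoid genes in soybean, had 13.2, 16.1 and 20.0 FPKM at t40, against 2.30, 2.38 and 1.52 at t0 (log2 fold change 2.50, adjusted p = 0.000886). MYB176, a known regulator of the chalcone synthase gene CHS8, had 232, 264 and 197 FPKM at t40, against 285, 192 and 219 at t0, and its groups overlapped. With each library left out in turn, 24 to 27 members of the enzyme list were called higher.

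**Figure D3:**
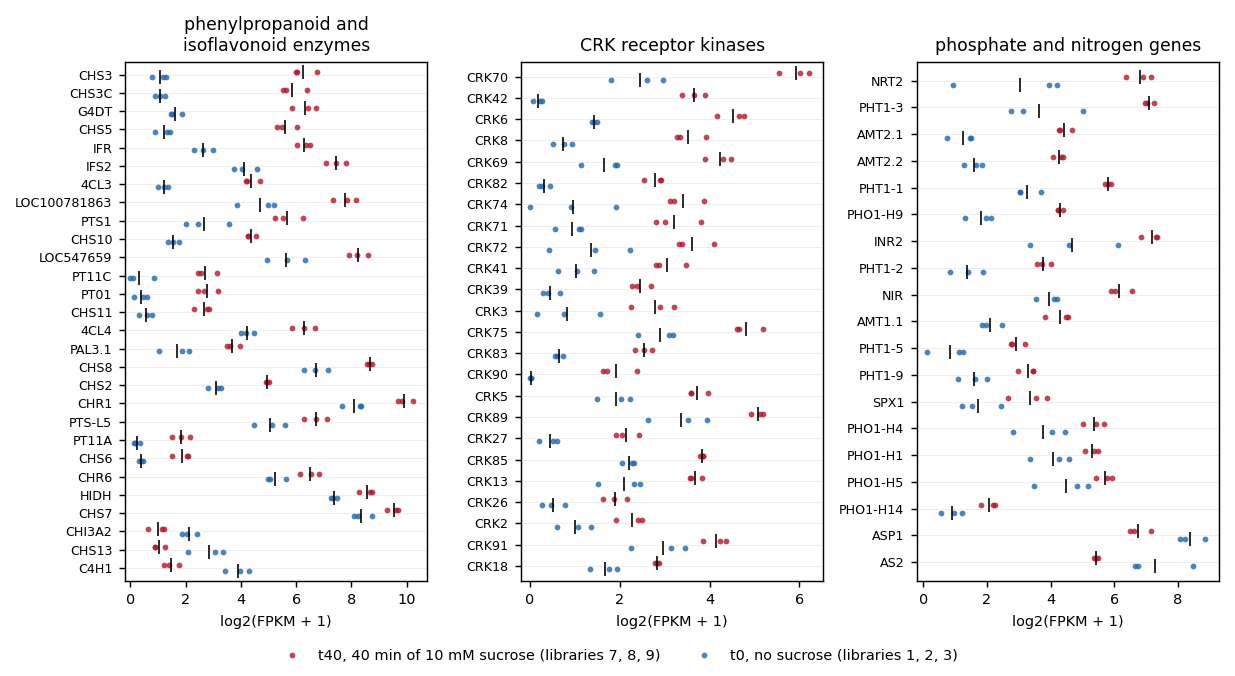
FPKM on the log2(FPKM + 1) scale of the called members of 3 groups of genes, with t40 libraries in red, t0 libraries in blue and a black tick at the mean of each 3 values. CHS13, CHI3A2 and C4H1 in the left panel and ASP1 and AS2 in the right panel are lower at t40, and all others are higher.

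Of 34 tested cysteine-rich receptor kinases (CRK), a family of membrane kinases with extracellular cysteine motifs, 24 were called higher and 0 lower (70.6% beside 10.5% of all genes), with a median log2 fold change of 1.70. All t40 libraries were above all t0 libraries for 31 of them, which holds for 26.6% of all genes, and 22 to 25 were called with any 1 library left out. CRK70 had 73.8, 46.0 and 63.6 FPKM at t40, against 5.06, 6.83 and 2.48 at t0 (log2 fold change 3.47, standard error 0.38, adjusted p = 0.000904). CRK42 had 11.6, 9.53 and 13.8 FPKM at t40, against 0.200, 0.0463 and 0.177 at t0. CRK70 was both the most abundant and the most changed member. Many called members, among them CRK70, CRK75 and CRK89, lay in runs of neighbours on chromosome 20. Such copies can share reads, so the counts may not stand for separate changes. Of 8 tested genes of the MAP kinase cascade, which passes signals from receptors to factors, 5 were called higher (62.5% beside 10.5% of all genes). MPK4B had 35.8, 29.9 and 33.3 FPKM at t40, against 9.31, 8.61 and 4.06 at t0. Each t40 library of MPK4B was above all its t0 libraries, and 4 or 5 genes of the cascade were called higher with any 1 library left out.

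Among calcium sensors and binding proteins 5 of 12 (41.7%) were called higher, beside 10.5% of all genes. The count was 2 without library 7 or 9 and 3 without library 3 or 8. The calmodulin SCAM-4, a divergent form known in soybean for its link to defence, had 20.3, 11.3 and 26.0 FPKM at t40, against 4.48, 3.61 and 1.94 at t0 (log2 fold change 2.19, adjusted p = 0.00895). The conventional calmodulin SCAM-2, the most abundant of the list, had 229, 224 and 264 FPKM at t40, against 279, 303 and 374 at t0, and was not called. Of 19 immune regulators, 9 (47.4%) were called higher and 0 lower, beside 10.5% and 3.49% of all genes. With any 1 library left out, 6 to 10 were called higher. EDS1-2 and PAD4 belong to a pair of lipase-like proteins that act together in immunity. EDS1-2 had 27.0, 24.6 and 25.9 FPKM at t40, against 7.61, 4.52 and 5.14 at t0 (log2 fold change 2.01, adjusted p = 0.00495). PAD4 had 30.0, 27.2 and 32.4 FPKM at t40, against 13.4, 10.2 and 7.14 at t0 (log2 fold change 1.49, adjusted p = 0.00609). PTI1B, named for a kinase that interacts with the resistance kinase Pto in tomato, had 39.0, 36.2 and 42.8 FPKM at t40, against 9.87, 9.08 and 5.24 at t0. The t40 values of all 3 genes lay in a narrow range. By contrast, 0 of 17 tested 14-3-3 proteins, 0 of 10 WNK kinases and 0 of 10 diacylglycerol kinases were called by limma in either direction. Over all genes 10.5% were called higher and 3.49% lower. At an unadjusted p under 0.05, 2 of the 14-3-3 proteins were lower, 2 of the WNK kinases higher and 6 of the diacylglycerol kinases higher. Without library 1 or 5, 1 WNK kinase was called higher. Among 14 tested defence proteins (PR proteins, Kunitz and Bowman-Birk inhibitors), 2 (14.3%) were called higher and 0 lower, with a median log2 fold change of 0.94. The higher count was 0 without library 2, 6, 7, 8 or 9 and after median-ratio scaling, and 4 without library 4. Their summed FPKM was 487 to 688 at t40, against 522 to 701 at t0.

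Transcription factor families differed widely in how many members were called. Of 53 WRKY factors 32 (60.4%) were called higher, and of 36 NAC factors 19 (52.8%), beside 10.5% of all genes, with 0 lower in both families beside 3.49%. WRKY46 had 24.7, 30.1 and 47.6 FPKM at t40, against 0.171, 0.0490 and 0.125 at t0 (log2 fold change 4.93, standard error 0.52, adjusted p = 0.000893). WRKY6 had 43.0, 50.01 and 47.8 FPKM at t40, against 5.84, 2.96 and 1.93 at t0. WRKY48, the most abundant WRKY, did not follow them, with 73.7, 61.0 and 44.0 FPKM at t40, against 48.4, 25.1 and 58.5 at t0, and its groups overlapped. NAC6 had 23.2, 28.0 and 39.2 FPKM at t40, against 3.80, 2.51 and 3.17 at t0 (log2 fold change 2.88, adjusted p = 0.00138). LOC100816770, with the synonym NAC55, had 9.25, 6.72 and 16.2 FPKM at t40, against 0.364, 0.207 and 0.496 at t0. The count of NAC factors was 10, 11 and 9 without libraries 3, 7 and 8, while that of WRKY factors stayed between 25 and 33.

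Heat shock factors and ERF factors were also called higher, 13 of 32 (40.6%) and 9 of 20 (45.0%), with 0 lower. Over all genes the shares were 10.5% higher and 3.49% lower. HSF-06 had 8.20, 7.52 and 9.97 FPKM at t40, against 0.763, 0.167 and 0.438 at t0 (log2 fold change 2.73, adjusted p = 0.00126). Of 9 tested heat shock proteins, the chaperones that these factors are known to induce, 0 were called by limma, while at an unadjusted p under 0.05 there were 2 higher and 4 lower. HSP90-1 had 151, 192 and 232 FPKM at t40, against 282, 294 and 451 at t0 (log2 fold change -0.82, adjusted p = 0.0453), a change smaller than the fold required. RAV, a factor with an AP2 domain, had 10.8, 11.04 and 10.3 FPKM at t40, against 1.60, 1.87 and 3.66 at t0. Heat shock factors called higher numbered 7, 8, 7 and 6 without libraries 2, 3, 8 and 9. For ERF factors the numbers were 5, 4, 3 and 4 in these fits and 5 after median-ratio scaling. Of 60 MYB factors 14 were called higher and 1 lower (23.3% and 1.67%), and of 88 bZIP and TGA factors 9 and 2 (10.2% and 2.27%), close to the shares of all genes. Higher bZIP and TGA factors numbered 5 without library 2 or 8. BZIP125 was 1 of the lower ones, with 42.2, 49.1 and 56.0 FPKM at t40, against 135, 147 and 124 at t0 (log2 fold change -1.45, adjusted p = 0.0039). Of 24 clock genes 0 were called by limma, with 4 higher and 1 lower at an unadjusted p under 0.05 and 3 called higher without library 1. LCL1, a member of the LHY family of morning factors, had 178, 193 and 160 FPKM at t40, against 170, 98.4 and 60.03 at t0.

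The plot of calls per gene list sets the lists with at least 10 tested members beside the shares of all genes. Over all lists, which hold 1165 tested genes, 265 (22.8%) were called higher and 36 (3.09%) lower. The lists were made from gene symbols and synonyms. Of 1716 tested genes with a name other than a LOC number or an assembled locus number, 321 were called higher and 53 lower. The share called higher among these named genes was above the 10.5% of all tested genes. No list was compared with named genes alone, so an excess over 10.5% may be shared by named genes in general.

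**Figure D4:**
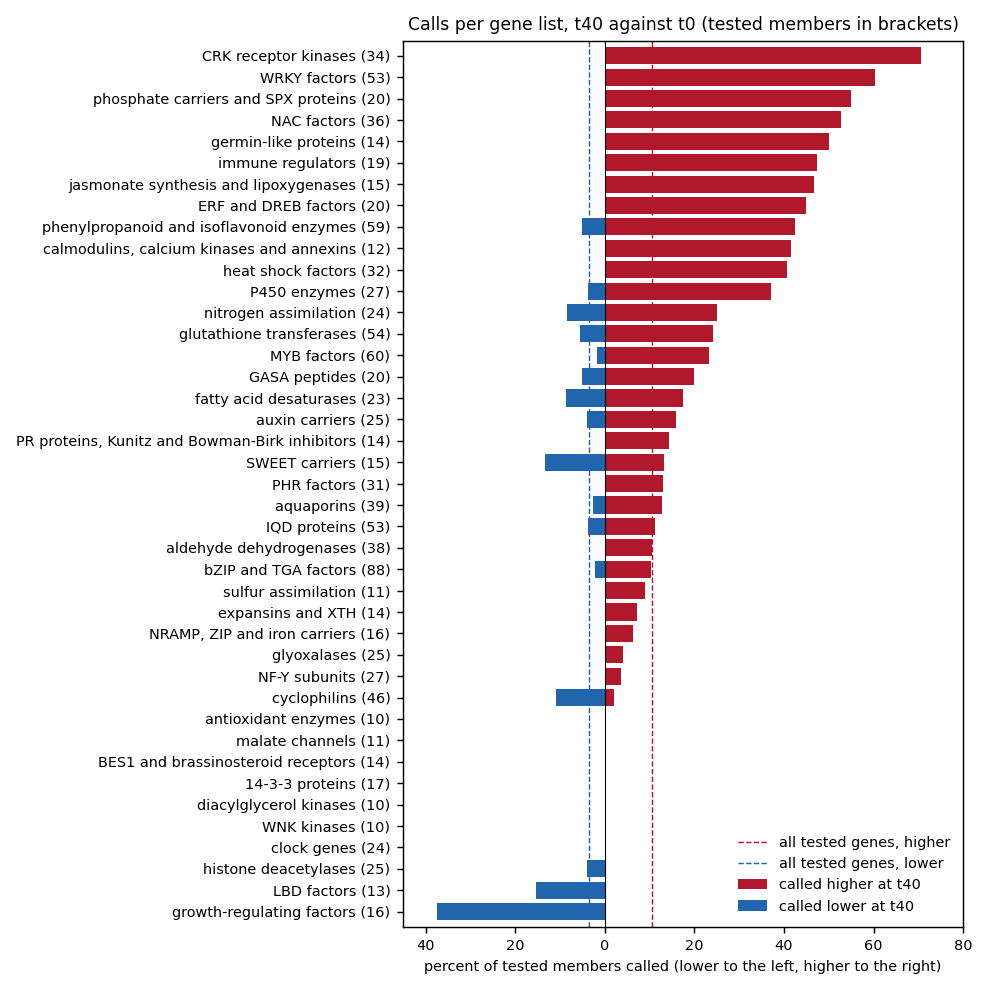
Percent of tested members called higher at t40 (red, to the right) and lower (blue, to the left) for each gene list with at least 10 tested members, whose number stands in brackets. Dashed lines mark 10.5% and 3.49%, the shares of all 32763 tested genes, and CRK receptor kinases have the longest bar to the right and growth-regulating factors the longest to the left.

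Of 15 genes of jasmonate synthesis and lipoxygenases, 7 were called higher and 0 lower (46.7% beside 10.5% of all genes higher), with a median log2 fold change of 1.13. AOS2, an allene oxide synthase, which makes the first committed intermediate, had 43.8, 75.7 and 97.3 FPKM at t40, against 4.88, 3.79 and 7.13 at t0 (log2 fold change 3.51, standard error 0.54, adjusted p = 0.00274). LOC100800036, with the synonym AOC2 of an allene oxide cyclase, had 80.7, 64.3 and 122 FPKM at t40, against 11.3, 7.29 and 13.0 at t0 (log2 fold change 2.95, adjusted p = 0.00282). The lipoxygenase LOXB1 was abundant in both groups, with 969, 906 and 782 FPKM at t40, against 328, 418 and 213 at t0 (log2 fold change 1.51, adjusted p = 0.00495). In all 3 genes each t40 library was above each t0 library. FAD7-2 and FAD7-1, plastid desaturases that make the linolenic acid from which jasmonate is derived, were also called higher. FAD7-2 had 19.0, 25.9 and 60.8 FPKM at t40, against 1.31, 1.07 and 0.924 at t0 (log2 fold change 3.94, adjusted p = 0.000921).

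Among genes of other hormones, 2 of 9 gibberellin oxidases were called higher and 1 lower (22.2% and 11.1%, beside 10.5% and 3.49% of all genes). GA2OX1, which inactivates gibberellins, had 11.4, 16.0 and 19.8 FPKM at t40, against 1.85, 2.31 and 1.40 at t0 (log2 fold change 2.53, adjusted p = 0.00245). GA20OX7, which acts in gibberellin synthesis, had 1.18, 9.52 and 1.41 FPKM at t40, against 52.5, 19.4 and 9.33 at t0 (log2 fold change -2.56, adjusted p = 0.0282), so its groups overlapped, and its call was lost without library 1, 2, 7 or 9. Without library 3, 7 or 8, 1 gibberellin oxidase was called higher, and without library 3 or 4, 2 were called lower. Of 20 GASA peptides, small secreted proteins named for their response to gibberellin in Arabidopsis, 4 were called higher and 1 lower (20.0% and 5.00%). GASA27 had 68.2, 57.7 and 67.9 FPKM at t40, against 6.86, 25.6 and 10.7 at t0 (log2 fold change 2.28, adjusted p = 0.00419). GASA peptides called higher numbered 1 without library 3 or 7 and 2 without library 8 and after quantile normalization or median-ratio scaling, and those called lower 3 without library 4 or 5 and 0 without each other library. Among 25 auxin carriers 4 were called higher, all of them LAX influx carriers, and 1 lower, that is 16.0% and 4.00%, and the median log2 fold change of 0.06 became -0.13 after quantile normalization and -0.02 after median-ratio scaling. LAX3 had 18.7, 23.9 and 19.3 FPKM at t40, against 7.596, 8.51 and 6.65 at t0 (log2 fold change 1.33, adjusted p = 0.00567). The lower one was LOC100802041, with the synonym GmPIN1e of an auxin efflux carrier, at 4.51, 6.46 and 6.46 FPKM at t40, against 11.5, 17.2 and 18.4 at t0 (log2 fold change -1.28, adjusted p = 0.0149). Its call was lost without library 3 or 7 (adjusted p of up to 0.0614). Without library 8 only 1 LAX gene was called higher, and without library 1 the carriers called lower numbered 4. Quantile normalization gave 2 higher and 2 lower carriers. Of 6 auxin receptors 0 were called by limma, with 2 lower at an unadjusted p under 0.05.

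Of 20 phosphate carriers and SPX proteins 11 were called higher and 0 lower (55.0% beside 10.5% of all genes higher), with a median log2 fold change of 1.23. The count was 6 without library 3 and 6 without library 8. PHT1-3, a plasma membrane phosphate carrier, had 151, 124 and 128 FPKM at t40, against 7.83, 5.76 and 31.5 at t0 (log2 fold change 3.44, standard error 0.72, adjusted p = 0.0105). PHT1-1 had 51.4, 58.8 and 55.4 FPKM at t40, against 11.96, 7.29 and 7.28 at t0 (log2 fold change 2.54, adjusted p = 0.0013). Their t40 values were even, while library 3 stood out among the t0 values of PHT1-3. PHO1-H9, of a family that exports phosphate toward the shoot, had 20.1, 17.7 and 18.0 FPKM at t40, against 3.33, 1.49 and 2.96 at t0. Of 31 PHR factors, the MYB-like regulators of phosphate starvation genes, 4 were called higher (12.9% beside 10.5% of all genes), and 1 of 31 after quantile normalization, without library 3 and without library 8, and 2 without library 7.

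For nitrogen, 6 of 24 tested genes were called higher and 2 lower (25.0% and 8.33%, beside 10.5% and 3.49% of all genes). The higher ones included the nitrate carrier NRT2, nitrate reductase INR2, nitrite reductase NIR and 3 ammonium carriers, which together take up and reduce nitrogen. NIR had 93.3, 58.6 and 64.2 FPKM at t40, against 17.2, 10.7 and 16.4 at t0 (log2 fold change 2.21, standard error 0.30, adjusted p = 0.00177). NRT2 had 141, 82.5 and 118 FPKM at t40, against 14.3, 0.902 and 17.6 at t0 (log2 fold change 3.78, adjusted p = 0.0243). The ammonium carrier AMT2.1 had 18.3, 18.7 and 24.7 FPKM at t40, against 1.82, 0.683 and 1.75 at t0 (log2 fold change 3.18, adjusted p = 0.00191). Every t40 library of these 3 genes was above every t0 library, but NRT2 lost its call without library 2, 7, 8 or 9 (adjusted p of 0.0591 to 0.0766), and INR2 without library 2, 7 or 9. The lower genes act in the turnover of asparagine, a nitrogen carrier of legumes. The asparaginase ASP1 had 96.9, 88.5 and 142 FPKM at t40, against 266, 300 and 466 at t0 (log2 fold change -1.64, adjusted p = 0.00621). The asparagine synthetase AS2 had 44.3, 40.6 and 41.7 FPKM at t40, against 354, 101 and 106 at t0 (log2 fold change -1.86, adjusted p = 0.0265), and it lost its call without library 7, 8 or 9 (adjusted p of 0.0647 to 0.0801). LOC548082, a cytosolic glutamine synthetase and the most abundant gene of the list, had 1002, 1329 and 980 FPKM at t40, against 1406, 883 and 1147 at t0. Its groups overlapped. Of 11 sulfur assimilation genes 1 was called higher (9.09%, near the 10.5% of all genes). The count was 0 without library 2, 3, 7, 8 or 9 and under each scaling alternative. Of 16 NRAMP, ZIP and iron carriers 1 was called higher (6.25% beside 10.5% of all genes). The higher count was 3 without library 1 and 0 without library 3. In the fit without library 3 and after quantile normalization or median-ratio scaling, 1 was called lower. Of 11 malate channels 0 were called by limma, and 0 at an unadjusted p under 0.05.

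Of 15 tested SWEET carriers, which let sugars move across membranes along their gradient, 2 were called higher and 2 lower (13.3% each). SWEET26 had 10.5, 8.66 and 19.3 FPKM at t40, against 70.0, 126 and 43.5 at t0 (log2 fold change -2.49, adjusted p = 0.0153). SWEET45 had 9.54, 10.9 and 23.3 FPKM at t40, against 62.3, 119 and 37.3 at t0 (log2 fold change -2.19, adjusted p = 0.0326). Both were lower in every t40 library, with library 2 the highest of both at t0. SWEET26 lost its call without library 2, 7 or 8 and SWEET45 without library 1, 2, 7 or 8. The calls of SWEET11 and SWEET42, both higher, were made in 3 of the 9 fits each, not without library 7, 8 or 9 and some others. Quantile normalization gave 0 higher and 4 lower carriers. SWEET14, the most abundant member, had 222, 204 and 260 FPKM at t40, against 282, 219 and 140 at t0. STP, named for hexose carriers that take up sugars from the cell wall space, had 36.5, 30.0 and 19.8 FPKM at t40, against 5.06, 6.77 and 7.05 at t0 (log2 fold change 2.00, standard error 0.43, adjusted p = 0.0112). LOC100788584, with the synonym GmSS of sucrose synthase, which cleaves sucrose, had 623, 704 and 532 FPKM at t40, against 748, 524 and 759 at t0. The sucrose synthase gene SS had 442, 474 and 445 FPKM at t40, against 352, 356 and 463 at t0. The groups of both sucrose synthase genes overlapped. The aquaporin LOC100527333, with the synonym GmTIP2;2 of the vacuole membrane, had 1768, 1394 and 1220 FPKM at t40, against 651, 654 and 577 at t0 (log2 fold change 1.20, adjusted p = 0.0121), and it lost its call without library 7 (adjusted p = 0.0572). Among 39 aquaporins 5 were called higher and 1 lower, that is 12.8% and 2.56%, near the 10.5% and 3.49% of all genes. The higher ones numbered 0 without library 7, 1 without library 3 and 2 without library 2 or 8, and the lower one was lost without library 2, 6, 7, 8 or 9.

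Genes of the cell wall and of detoxification included the most abundant rise. MSTRG.17443, an assembled locus on chromosome 9 that joins the repetitive proline-rich wall protein genes PRP1 and PRP2, had 10388, 8999 and 6494 FPKM at t40, against 1601, 1502 and 1283 at t0 (log2 fold change 2.54, standard error 0.43, adjusted p = 0.00438). It was called in all 9 fits with 1 library left out. The 2 peroxidases with a symbol, Ep and POD, were both higher. Ep had 167, 61.8 and 74.6 FPKM at t40, against 11.2, 4.03 and 6.14 at t0 (log2 fold change 3.61, adjusted p = 0.00645). Germin-like proteins, secreted proteins of the wall, were called higher in 7 of 14 cases, beside 10.5% of all genes, in 4, 4, 3 and 2 without libraries 2, 3, 7 and 8, and in 4 after quantile normalization. The most abundant, GER2, had 724, 263 and 491 FPKM at t40, against 31.3, 22.8 and 255 at t0, so that library 3 nearly reached the lowest t40 library. Its adjusted p was 0.0487, and the call was lost in 6 of 9 fits, without library 1, 2, 6, 7, 8 or 9. The list of expansins and xyloglucan enzymes also holds genes with a CEL symbol. Among these, CEL12 had 155, 138 and 115 FPKM at t40, against 55.7, 74.3 and 54.2 at t0 (log2 fold change 1.14, adjusted p = 0.00898). It was the only called gene of 14 (7.14%), so no gene named for an expansin or a xyloglucan enzyme was called. XET1 had the largest rise of the list (log2 fold change 2.15, adjusted p = 0.0549). Without library 4, 3 genes of this list were called higher, without library 6 or 9 there were 2, and without library 1 there were 2 higher and 1 lower. Quantile normalization and median-ratio scaling each added 1 lower gene. Of 54 glutathione transferases, which attach glutathione to toxic compounds, 13 were called higher and 3 lower (24.1% and 5.56%). GSTU47 had 47.9, 53.9 and 55.1 FPKM at t40, against 11.1, 7.49 and 3.39 at t0 (log2 fold change 2.80, adjusted p = 0.00132). The higher count was 8 without library 3, 7 or 9, and the lower count was 1 without library 2 or 8 and 0 without library 7. Of 10 antioxidant enzymes 0 were called by limma, with 2 higher and 2 lower at an unadjusted p under 0.05, and APX2, an ascorbate peroxidase, had 881, 842 and 747 FPKM at t40, against 1103, 949 and 1297 at t0.

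The largest falls were fewer and smaller than the largest rises. SACPD-C, a stearoyl-acyl carrier protein desaturase that makes oleic acid in plastids, had 5.48, 1.64 and 1.56 FPKM at t40, against 55.9, 54.0 and 84.1 at t0 (log2 fold change -4.19, standard error 0.61, adjusted p = 0.00214). LOC100500169 on chromosome 1 had 3.89, 4.81 and 2.67 FPKM at t40, against 89.2, 53.5 and 66.8 at t0 (log2 fold change -3.88, standard error 0.24, adjusted p = 0.000509). LOC100816661 on chromosome 13 had 2.95, 1.45 and 1.31 FPKM at t40, against 44.3, 31.7 and 31.6 at t0 (log2 fold change -3.69, adjusted p = 0.00188). In these genes the t0 libraries were close together and the t40 libraries all low. LOC100776723 on chromosome 12 had 2.01, 0.833 and 0.823 FPKM at t40, against 25.5, 30.6 and 15.1 at t0 (log2 fold change -3.46, adjusted p = 0.00294). All 12 of the largest falls were called in each of the 9 fits with 1 library left out. Several of them had uneven t0 libraries. LOC100776758 on chromosome 6 had 0.875, 0.507 and 0 FPKM at t40, against 59.5, 29.9 and 10.2 at t0, where library 3 was the lowest. Among fatty acid desaturases, a list of 23 tested genes, 4 were called higher and 2 lower (17.4% and 8.70%, beside 10.5% and 3.49% of all genes). SACPD-C and the FAD7 genes moved in opposite directions. The higher desaturases numbered 2 without library 7, and the lower ones 1 without library 2, 3, 7 or 8.

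Of 16 growth-regulating factors (GRF), which promote cell proliferation in growing organs, 6 were called lower and 0 higher (37.5% lower beside 3.49% of all genes). All t40 libraries were below all t0 libraries for 13 of the 16, which holds for 20.8% of all genes, and the median log2 fold change was -0.85. GRF1 had 4.59, 2.68 and 4.05 FPKM at t40, against 8.56, 10.7 and 13.4 at t0 (log2 fold change -1.32, adjusted p = 0.0135). GRF12 had 1.76, 1.15 and 1.90 FPKM at t40, against 3.63, 6.08 and 9.01 at t0 (log2 fold change -1.42, adjusted p = 0.014). The GRF calls rested on single libraries. They numbered 2 without library 2, 3 or 7, 3 without library 6 and 0 without library 8, and 9 after quantile normalization. Of 13 LBD factors, a family of lateral organ and lateral root regulators, 2 were called lower (15.4% beside 3.49% of all genes) and 0 higher. LBD37 had 7.05, 3.60 and 3.82 FPKM at t40, against 45.6, 30.6 and 52.9 at t0 (log2 fold change -2.93, standard error 0.44, adjusted p = 0.00242). LBD30 had 3.18, 2.40 and 2.31 FPKM at t40, against 28.9, 13.0 and 20.9 at t0. Both were called in every fit with 1 library left out, and without library 2 another LBD gene was called higher (1 of 13). Of 7 cyclin, histone and tubulin genes 2 were called higher (28.6% beside 10.5% of all genes) and 0 lower. Their median log2 fold change was 0.0017, or -0.08 after median-ratio scaling. The histone gene H4 rose, with 1911, 1065 and 999 FPKM at t40, against 290, 259 and 348 at t0 (log2 fold change 2.09, adjusted p = 0.0112), and so did the tubulin gene TUBB1, which lost its call without library 1, 7 or 8 (adjusted p of up to 0.0795). The tubulin gene TUBB2 had 78.6, 85.0 and 98.2 FPKM at t40, against 122, 133 and 166 at t0 (log2 fold change -0.68, adjusted p = 0.0443), a change smaller than the fold required. Of 46 cyclophilins, enzymes that help proteins fold, 5 were called lower and 1 higher (10.9% and 2.17%). CYP10 of this family had 33.8, 40.3 and 43.6 FPKM at t40, against 86.4, 90.0 and 110 at t0 (log2 fold change -1.26, adjusted p = 0.00469). Cyclophilins called lower numbered 3 without library 3 and 2 without library 7 or 8, and the higher call was lost without library 3 and after quantile normalization or median-ratio scaling. Of 25 histone deacetylases 1 was called lower, HDT2 (4.00%, near the 3.49% of all genes), and 13 had all t40 libraries below all t0 libraries. The HDT2 call was made in 3 of the 9 fits with 1 library left out, not without library 2, 3, 6, 7, 8 or 9.

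Falls were concentrated among abundant genes with short transcripts. Of 534 genes that averaged 200 FPKM or more, 221 (41.4%) were called lower and 42 (7.87%) higher, while of 12032 genes with a mean FPKM of 1 to under 5, 171 were called lower and 1213 higher. The length of the most abundant transcript of a called lower protein-coding gene had a median of 919 bases, against 1662 bases for called higher genes and 1722 bases for all tested. Within the genes of at least 200 FPKM, transcripts under 900 bases were called lower in 145 of 269 cases (53.9%), and transcripts of 1500 bases or more in 5 of 65. The median FPKM of the short class was 195, 195 and 253 in the t40 libraries, against 358, 396 and 502 in the t0 libraries, with library 3 the highest. Without library 3 the calls in this class numbered 55, while its median log2 fold change was -0.93, against -1.07 with it. After centring each length class within each library, 103 were called lower and the median was -0.91. Length, library 3 and the share of FPKM taken by called higher genes all moved with these falls, and their part was not tested. GRP, a glycine-rich protein gene, was an abundant example, with 383, 381 and 404 FPKM at t40, against 1132, 1271 and 1429 at t0 (log2 fold change -1.71, standard error 0.22, adjusted p = 0.00137). MSTRG.33950, which joins the elongation factor gene TEFS1 with a microRNA gene, had 1689, 1722 and 2145 FPKM at t40, against 3773, 3621 and 4581 at t0 (log2 fold change -1.11, adjusted p = 0.0219). The call of GRP was made in all 9 fits with 1 library left out, and that of MSTRG.33950 in 5, not without library 2, 3, 7 or 8.

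**Figure D5:**
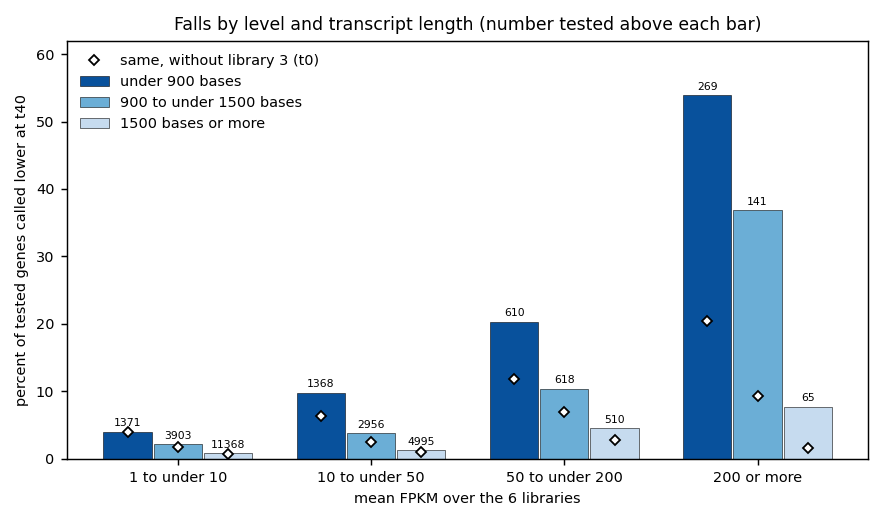
Percent of tested protein-coding genes called lower at t40, by mean FPKM over the 6 libraries and by length of the most abundant transcript, with the number tested above each bar and open diamonds for the fit without library 3. Among genes of at least 200 FPKM, 53.9% of those under 900 bases were called lower, and the open diamonds lie below the bars in all 3 length classes of this level.

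Counts of ribosomal RNA loci depended on library 3. Of 274 tested ribosomal RNA loci 62 were called lower and 0 higher, with a median log2 fold change of -1.65, but without library 3 only 1 was called lower and the median was -0.99. MSTRG.24702, which joins 6 annotated ribosomal RNA genes on chromosome 13, had 993, 378 and 437 FPKM at t40, against 1361, 2009 and 6231 at t0, so that library 3 alone was far above all others. Its call was lost without library 2, 3, 8 or 9 (adjusted p of 0.0528 to 0.103). Of 12 small nuclear RNA genes, which take part in splicing, 7 were called higher, and 4 without library 3, with medians of 1.10 and 1.05. Among 32 microRNA genes 4 (12.5%) were called higher and 0 lower, with 2 higher without library 3. Among 587 long noncoding RNA genes 50 were called higher and 16 lower (8.52% and 2.73%), so both kinds stood near the 10.5% and 3.49% of all genes.

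Called genes often lay beside one another. The next tested gene on the chromosome was called higher too for 636 of 3439 called higher genes (18.5%), beside 10.5% over all genes, and called lower too for 64 of 1143 called lower genes (5.60%), beside 3.50%. These neighbours overlapped in position in 29 of the 636 cases and in 11 of the 64. Runs of at least 3 neighbouring genes called in the same direction numbered 109 for rises (382 genes) and 6 for falls (25 genes). Genes in such runs are often tandem copies, which can share reads. The longest run of rises held 8 genes on chromosome 12 (3842577 to 3917081 on the Glycine_max_v4.0 assembly) with a median log2 fold change of 3.65. It includes ICHG, named for a glucosidase that releases isoflavones from their conjugates, with 583, 435 and 332 FPKM at t40, against 122, 169 and 92.6 at t0 (log2 fold change 1.81, adjusted p = 0.018). ICHG lost its call without library 3, 7 or 8 (adjusted p of 0.0579 to 0.0697). LOC106794108 in the same run had 77.1, 64.8 and 98.96 FPKM at t40, against 1.20, 2.41 and 0.516 at t0. The 7 genes of a run on chromosome 11 (9784783 to 9867089) had log2 fold changes of 2.36 to 5.85. Of these, LOC100777773 had 29.4, 31.3 and 53.1 FPKM at t40, against 0.0222, 0 and 0.0278 at t0. On chromosome 20, the 5 neighbours CRK69, CRK70, CRK71, CRK72 and CRK74 (37710881 to 37783172) formed 1 run, with log2 fold changes of 2.24 to 3.47.

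Falls in runs were found on chromosomes 6, 12, 13 and 17. On chromosome 6, LOC100305823, LOC100776758, LOC100777823 and LOC100778355 (48325870 to 48336913) had a median log2 fold change of -3.23, and LOC100777823 lost its call without library 8 or 9. LOC100305823 had 11.5, 6.15 and 5.30 FPKM at t40, against 130, 111 and 48.7 at t0. On chromosome 13 a run of 5 genes (39266945 to 39283277) was led by LOC100305771, with 7.28, 3.53 and 3.62 FPKM at t40, against 93.6, 60.1 and 51.7 at t0 (log2 fold change -3.59, adjusted p = 0.00324). On chromosome 17 the run of 4 genes (9216188 to 9232872) included LOC100306683, with 9.93, 6.69 and 5.38 FPKM at t40, against 61.9, 108 and 90.8 at t0 (log2 fold change -3.40, adjusted p = 0.00855). In each of these named genes the highest t40 library was well below the lowest t0 library. Another run on chromosome 13 (5818 to 22874) held 4 loci that overlap in position. Among them MSTRG.40160 had 54.2, 17.5 and 19.6 FPKM at t40, against 47.5, 77.5 and 252 at t0, so its groups overlapped and library 3 was the highest. Its call was made in 2 of the 9 fits with 1 library left out.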

How the data were processed

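RNA was taken from root tip sections of 9 soybean plants, 3 at each of t0, t20 and t40. The FPKM values were made by the authors, who demultiplexed the stranded, paired-end mRNA reads with bcl2fastq 2.20, checked them with FastQC, trimmed them with Trimmomatic 0.32, aligned them to Glycine_max_v4.0 with HISAT2 and assembled and quantified transcripts with StringTie and Ballgown. Versions of the other tools are not given in the sources used here. FPKM carries no read count, so the depth behind each value is unknown, and the study's sequencing summary lists the t40 libraries as smaller on the whole. The same summary gives every t40 library a lower overall alignment rate than every t0 library. The part of these differences in the results was not tested. The columns name the time but no replicate number, and 9 further columns of per-library coverage were not used.

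FPKM was summed over the transcripts of a gene identifier (119600 transcripts), log2(FPKM + 1) was taken, and all 9 libraries entered 1 fit with limma 3.58.1 in R 4.3.3 (lmFit, eBayes with trend). In the fit the t20 libraries served only to estimate the spread. Their values also counted in the FPKM filter and in the choice of the most abundant transcript of a gene. Genes with an FPKM of 1 or more in 3 libraries were kept, and fold changes on this scale understate the change of low genes. Adjusted p-values are Benjamini-Hochberg values over all 32763 genes, and every adjusted p in the text comes from limma. The scripts were tested on simulated data. Symbols, synonyms and kinds of genes come from a RefSeq table of the same assembly.

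The comparison, the gene lists and the rules were chosen with earlier results of these data known. Genes named are the 12 largest rises and falls without overlap and with a mean FPKM of at least 5, the 8 most abundant called genes in each direction, and, per list, up to 3 called members in each direction and the most abundant member. PAL3.1, 4CL3, IFS2, IFR, PTS1, PAD4, WRKY6, NIR, INR2, SEOA, ICHG, other members of runs of neighbours and the phloem list were chosen after values were seen. After values were seen, a P450 matched by synonym was taken out of the cyclophilins, and aquaporins whose synonyms are written with a semicolon were added to theirs. TUBB2 was also named after its values were seen. 1 gene that the rule names is not reported here. Protein signatures and promoter motifs were not searched. Alternatives changed the pseudocount (0.1 or 0.5), filter, scaling, fitted libraries, variance trend, transcript summing and threshold, and left out each library in turn. Centring 20 classes of transcript length was added after seeing the data.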

Additional observations from a re-analysis of the deposited data

How the results depend on the processing

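The number of genes called higher at t40 stayed within 1.5 times of 3441 under every alternative run except a log2 fold change of 1.5 with an unadjusted p under 0.05, which gave 1966 higher and 438 lower genes. With each library left out, 2447 to 3857 genes were called higher and 540 to 1510 lower, against 1144 lower genes with all libraries. The lower count was 540 without library 8, 604 without library 7 and 704 without library 3. Members of the gene lists called higher numbered 175 at the fold of 1.5 and 181 to 281 with a library left out, against 265. Members called lower, 36 with all libraries, numbered 21 with no filter on low FPKM, 56 after quantile normalization, 15 at the fold of 1.5 and 15 to 42 with a library left out (22, 15 and 17 without libraries 2, 7 and 8). Higher calls made up 75.05% of all calls, 62.4% after quantile normalization, where all genes had a median log2 fold change of -0.11 (0.06 without it), and 69.77% after median-ratio scaling. No gene was called in the opposite direction under any alternative. Of 163 named genes that were called, 97 were called under each of 20 alternatives, and 6 of 44 named genes that were not called gained a call. No paired analysis was possible because the columns carry no replicate numbers. FPKM without read counts limits what can be said of low genes.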
